A study of Mus musculus with 48 samples.

Results

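The D-type cyclins (Ccnd1, Ccnd2, Ccnd3), their kinase partners Cdk4 and Cdk6, and 5 inhibitors of Cdks (Cdkn1a, Cdkn1b, Cdkn2a, Cdkn2b, Cdkn2c) are described here across 13 sorted mouse pancreatic cell populations. These 10 genes were chosen by name, as the G1 cyclin and kinase machinery and its classical inhibitors, from 18194 genes that had at least 1 microarray probe of their own. Each gene is represented by its probe with the highest mean over all 48 arrays. A level is the deposited RMA value on a log2 scale, so that a difference of 1 is a 2-fold change, and levels are compared between populations within a probe, never between probes.

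Cells advance through G1 when D cyclins, whose synthesis responds to growth factors, activate Cdk4 or Cdk6, and these complexes phosphorylate the retinoblastoma protein and so free E2F factors to drive S phase genes. Ink4 proteins (p16Ink4a from Cdkn2a, p15Ink4b from Cdkn2b, p18Ink4c from Cdkn2c) bind Cdk4 and Cdk6 and displace the D cyclin, whereas Cip/Kip proteins (p21 from Cdkn1a, p27 from Cdkn1b) act mainly on Cdk2 complexes and can also help to assemble D cyclin complexes. In the mouse pancreas, beta cell mass depends on Cdk4 and on cyclin D2, and p16Ink4a is known for its accumulation in beta cells with age.

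The study sorted cells from mouse pancreas by reporter and surface marker, pooled many pancreata for the fetal replicates, amplified the RNA and hybridized it to Affymetrix whole-genome mouse arrays. Its methods give a CD-1 background for the insulin promoter reporter line of the beta cells and name none for the other reporter lines. It asked how gene expression changes from fetal progenitors to mature islet, acinar and duct cells. Neurog3-null cells (4 arrays) were the single mutant population: GFP+ cells of E15 embryos homozygous for an eGFP knock-in at Neurog3, so they were marked by promoter activity and lacked the factor. Endocrine progenitors (3 arrays), acinar cells (3 arrays) and progenitors (3 arrays) at E15 came from Neurog3-eGFP pancreata of a transgenic line, gated on CD133, CD49f and CD24. Adult duct cells (4 arrays) were sorted by CD133. Alpha cells carried Glucagon-Venus (5 adult arrays and 4 at P1), and beta cells carried GFP under a mouse insulin promoter (4 arrays at E15, 3 at E17, 3 at P1, 4 at P15 and 4 from adults). E11 progenitors (4 arrays) were Sox9-eGFP+ cells of the dorsal pancreas. The other 12 populations were labelled wild type apart from the reporters, adults were 8 to 12 weeks old, and adult islet cells came from male mice. The labels write the fetal stages with a fraction of a day added (E11.5 for E11, for example) and call the day of birth P0 where the study's text writes P1, and the titles of the Neurog3-null samples carry a shortened stage whereas their age field says E15.5. Each reporter marks what its promoter or transgene marks, so that a GFP+ cell of the Neurog3 lines can be a descendant that has left the progenitor state.

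The labelled cell types were checked with a few defining genes. Neurog3 measured 10.57 ± 0.32 (SD, n = 4) in Neurog3-null cells and 13.40 ± 0.05 (SD, n = 3) in endocrine progenitors. It averaged 11.68 in E15 progenitors, above the Neurog3-null cells, and 9.29 in E11 progenitors. Whether its probe lies in the replaced stretch is not given in the sources used here. Ins2 averaged between 14.29 and 14.65 in the beta cell populations, and Gcg averaged 14.28 in P1 and 14.48 in adult alpha cells, although each hormone was also above 13.7 in the other islet type. Ins2 averaged 14.46 in P1 alpha cells, above P1 beta cells (14.29), and Gcg averaged 13.89 in endocrine progenitors. The study states that such abundant mRNAs can saturate array probes, so these hormone levels separate alpha from beta cells poorly. RNA of other cells differed widely between sorts. Although the sorts gated against CD45, 13 macrophage and leukocyte markers averaged 11.30 in Neurog3-null, 11.19 in adult beta and 11.47 in adult duct cells, against 5.12 to 6.03 in progenitors, acinar cells and endocrine progenitors and 5.77 in adult alpha cells. Ptprc, which encodes CD45, averaged 10.66, 10.24 and 10.59 in the first 3 of these populations and was not above 100 on the linear scale in any array of the E11 and E15 progenitors, the acinar cells or the endocrine progenitors. Mesenchymal markers (9 genes) averaged 10.37, 12.12 and 12.64 in beta cells at E15, E17 and P1, and 6.34 and 7.80 at P15 and in adults. In bulk samples such as these, fewer cells of a type and less RNA per cell cannot be told apart.

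Promoters are shown for 4 members that differ most between populations or carry the most copies of a motif. Of the 10 genes, 8 had at least 1 promoter in the RefSeq table used (12 promoters, build GRCm38.p6, here the 250 bases before the start). None was matched to Ccnd1 or Ccnd2. Capitals mark the E-box CANNTG, the letters read by basic helix-loop-helix factors such as Neurog3 and Myc. The motif reads the same on both strands, and CACGTG, the form preferred by Myc, is contained in it. The first promoter belongs to Cdk4 and lies on the plus strand at chr10:127063285-127063534, that of Cdk6 on the plus strand at chr5:3343643-3343892, that of Cdkn1a on the plus strand at chr17:29093519-29093768 (the downstream of its 2 listed starts) and that of Cdkn2b on the minus strand at chr4:89311033-89311282.
Cdk4: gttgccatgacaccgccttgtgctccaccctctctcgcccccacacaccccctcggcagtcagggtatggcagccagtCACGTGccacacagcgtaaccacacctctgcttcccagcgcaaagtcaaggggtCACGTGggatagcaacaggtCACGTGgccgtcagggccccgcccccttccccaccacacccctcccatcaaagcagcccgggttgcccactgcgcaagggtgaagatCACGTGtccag
Cdk6: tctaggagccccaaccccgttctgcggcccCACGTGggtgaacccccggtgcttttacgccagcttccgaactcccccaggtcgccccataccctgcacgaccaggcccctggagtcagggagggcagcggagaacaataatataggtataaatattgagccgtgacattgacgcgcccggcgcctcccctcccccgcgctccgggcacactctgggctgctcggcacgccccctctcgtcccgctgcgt
Cdkn1a: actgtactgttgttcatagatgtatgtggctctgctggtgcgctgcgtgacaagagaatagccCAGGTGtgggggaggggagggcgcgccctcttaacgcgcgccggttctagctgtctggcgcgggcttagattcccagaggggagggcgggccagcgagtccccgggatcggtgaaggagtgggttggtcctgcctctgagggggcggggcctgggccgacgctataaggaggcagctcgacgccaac
Cdkn2b: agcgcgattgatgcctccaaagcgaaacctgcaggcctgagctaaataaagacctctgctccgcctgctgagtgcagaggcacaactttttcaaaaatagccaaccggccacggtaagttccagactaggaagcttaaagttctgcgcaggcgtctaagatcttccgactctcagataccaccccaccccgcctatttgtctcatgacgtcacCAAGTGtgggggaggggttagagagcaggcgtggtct
The Cdk4 window holds 4 copies of CACGTG. Of 32851 promoters of the same length, 7 (0.0213%) held 4 or more, that of Cdk4 among them. The Cdk6 window holds 1 CACGTG, Cdkn1a 1 CAGGTG and Cdkn2b 1 CAAGTG. An E-box of any form stood in 66.2% of all promoters and in 4 of the 12 member promoters, and CACGTG in 6.02% and in 2 of 12. The 4 printed windows are the ones with an E-box, and the upstream start of Cdkn1a had none. The GC box GGGCGG, searched on both strands, stood in 32.7% and in 7 of 12. Its letters can share an end base with an E-box, and overlap was not checked.

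Of the 10 members, 9 exceeded 100 on the linear scale in at least 1 array and were tested. Ccnd1, Ccnd2, Ccnd3, Cdk4, Cdkn1a and Cdkn1b passed in all 48 arrays, Cdk6 in 40 and Cdkn2b in 34. Cdkn2c passed in 7 arrays, which lay in E15 progenitors, acinar cells and E17 and P1 beta cells, so it entered the test only through populations where it was high, and its low values elsewhere sit in the range of probes that detect little. Its differences are therefore given as descriptions, with no p, and its place among the called members supports nothing. Cdkn2a exceeded 100 in no array and was not tested. Its 48 values lay between 4.56 and 5.84, with the highest mean in adult beta cells (5.65 ± 0.15; SD, n = 4) and the lowest in E11 progenitors (4.75 ± 0.21; SD, n = 4).

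**Figure D1:**
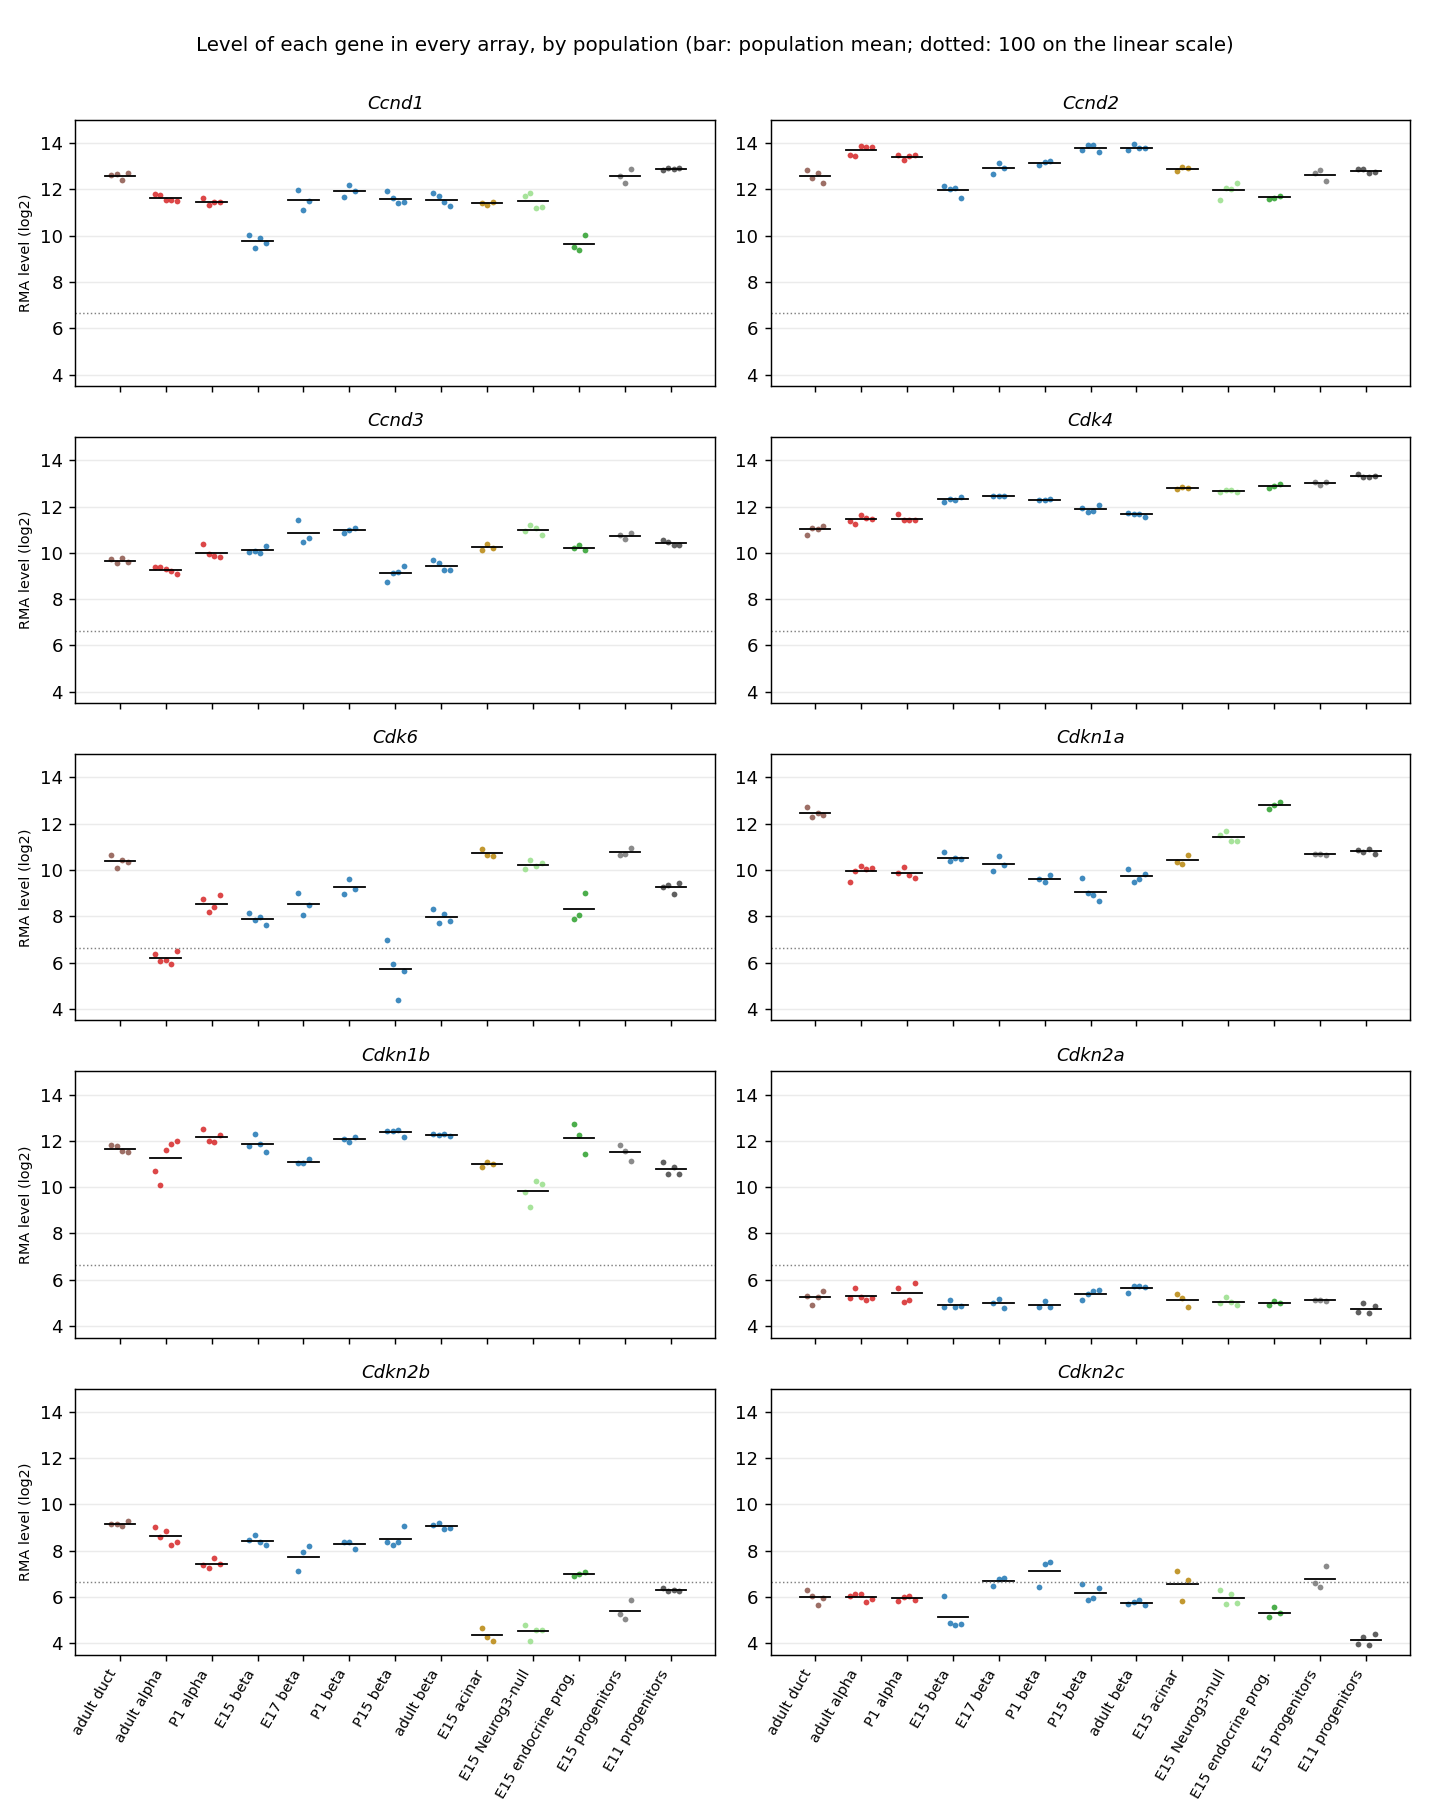
RMA level (log2) of the 10 genes in each of 48 arrays, by population. Each point is an array, each bar the mean of a population, and the dotted line is 100 on the linear scale. Cdk6 and Cdkn2b spread most between populations, by 5.04 and 4.82 between the highest and lowest means, whereas all 48 values of Cdkn2a lie below the dotted line.

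The range of population means was widest for Cdk6 (5.04) and Cdkn2b (4.82), which lay at percentiles 93.3 and 92.2 of this range among 32043 tested probes. Cdkn1a (3.73), Ccnd1 (3.24) and Cdkn2c (2.97) followed, and Cdkn1b (2.53), Cdk4 (2.32), Ccnd2 (2.15) and Ccnd3 (1.88) lay nearer to the median of all tested probes (1.99). A pair of populations was called for a probe when limma's adjusted p was below 0.05 and the difference was at least 2-fold. Of 78 pairs, 52 were called for Cdk6, 51 for Cdkn2b, 39 for Ccnd1 and 36 for Cdkn1a. For Ccnd2, Ccnd3, Cdk4, Cdkn1b and Cdkn2c 20 to 28 pairs each were called, against a median of 18 over all probes tested. The Cdkn2c count is a description only. In the orders of levels that follow, neighbours are said to differ where limma's adjusted p alone was below 0.05, whatever the size of the difference.

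Among the D cyclins, Ccnd1, the member most responsive to mitogens, had its highest means in E11 progenitors (12.89 ± 0.04; SD, n = 4), adult duct cells (12.60 ± 0.13; SD, n = 4) and E15 progenitors (12.59 ± 0.30; SD, n = 3), and neighbours in this top group did not differ. A step separated them from 8 populations between 11.93 in P1 beta cells and 11.40 in acinar cells, within which no neighbours differed, and a second step (adjusted p = 1.18e-09 between neighbours) separated acinar cells from E15 beta cells (9.77 ± 0.24; SD, n = 4) and endocrine progenitors (9.65 ± 0.34; SD, n = 3). Ccnd2, the D cyclin on which postnatal beta cell growth depends, had another order, with adult beta (13.80 ± 0.11; SD, n = 4), P15 beta and adult alpha cells at the top. Its single step between neighbours lay below adult duct cells (12.59 ± 0.25; SD, n = 4), and Neurog3-null cells, E15 beta cells and endocrine progenitors (11.65 ± 0.07; SD, n = 3) stood under it. This is the order on the brightest of 7 Ccnd2 probes, and several comparisons below differed on the other 6. Ccnd3 was highest in Neurog3-null cells (11.001 ± 0.18; SD, n = 4) and lowest in P15 beta cells (9.12 ± 0.27; SD, n = 4), and its step between neighbours separated P1 alpha cells and all populations above them from the duct, adult islet and P15 beta cells.

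Of the kinases, Cdk4 was ordered in small, tight steps with the youngest progenitors at the top and the adult duct at the bottom. Its SD within a population was at most 0.16. Means were 13.33 in E11 progenitors, between 12.68 and 13.01 in E15 progenitors, endocrine progenitors, acinar cells and Neurog3-null cells, between 12.30 and 12.45 in E15, E17 and P1 beta cells, between 11.44 and 11.91 in P15 and adult beta cells and in alpha cells, and 11.01 in adult duct cells. The adjusted p between neighbouring groups was below 0.05 at each of the 4 steps, all of them smaller than 2-fold, and neighbours within a group had a higher one. Cdk6, the partner kinase that can take the place of Cdk4, differed in its order: E15 progenitors (10.77), acinar cells (10.71), adult duct cells (10.38) and Neurog3-null cells (10.23) stood together at the top, E11 progenitors, endocrine progenitors and the other islet populations lay between 7.89 and 9.26, and adult alpha cells (6.19 ± 0.22; SD, n = 5) and P15 beta cells (5.73 ± 1.07; SD, n = 4) stood apart at the bottom.

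Of the Cip/Kip inhibitors, Cdkn1a was highest in endocrine progenitors (12.79 ± 0.14; SD, n = 3) and adult duct cells (12.46 ± 0.18; SD, n = 4), whose adjusted p was not below 0.05, followed by Neurog3-null cells (11.42 ± 0.20; SD, n = 4), which differed from both neighbours, by less than 2-fold from the lower one. The remaining populations ran between 10.81 in E11 progenitors and 9.06 in P15 beta cells. Cdkn1b varied little between neighbours except at the bottom, where Neurog3-null cells (9.84 ± 0.50; SD, n = 4) differed from E11 progenitors (10.78 ± 0.26; SD, n = 4), by less than 2-fold. Of the Ink4 genes, Cdkn2b was highest in adult duct cells (9.16 ± 0.09; SD, n = 4) and adult beta cells (9.05 ± 0.12; SD, n = 4), between 6.98 and 8.62 in the other endocrine populations, and below 100 on the linear scale in every array of E11 progenitors (6.30), E15 progenitors (5.38), Neurog3-null cells (4.51) and acinar cells (4.34). Cdkn2c was highest in P1 beta cells (7.12 ± 0.60; SD, n = 3), and lowest in E11 progenitors (4.15 ± 0.24; SD, n = 4).

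In the 17 comparisons of the design, 42 differences of members were called. Of these, 31 concerned a gene with another tested probe, every other probe was called in the same direction for 22 of them, and all probes had the same sign for 26. Of 88 differences not called on the brightest probe of a gene with another tested probe, 14 were called on at least 1 other probe, 7 of them for Ccnd2. The share of members called, out of 9 tested, was highest for endocrine progenitors against E15 progenitors and for Neurog3-null cells against endocrine progenitors (55.6% each). Cdkn2c, whose calls support nothing, is among the 5 called in the first of these. It also enters the other counts, shares and medians given here. In 9 of the 17 comparisons the share lay within 1 gene (11.1%) of the share of all tested probes. The count there says nothing particular about the members. The median difference of the 9 was -0.52 for endocrine progenitors against E15 progenitors (0.00 over all tested probes), 0.31 for Neurog3-null cells against endocrine progenitors (-0.01) and -0.39 for P15 against P1 beta cells (0.12).

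**Figure D2:**
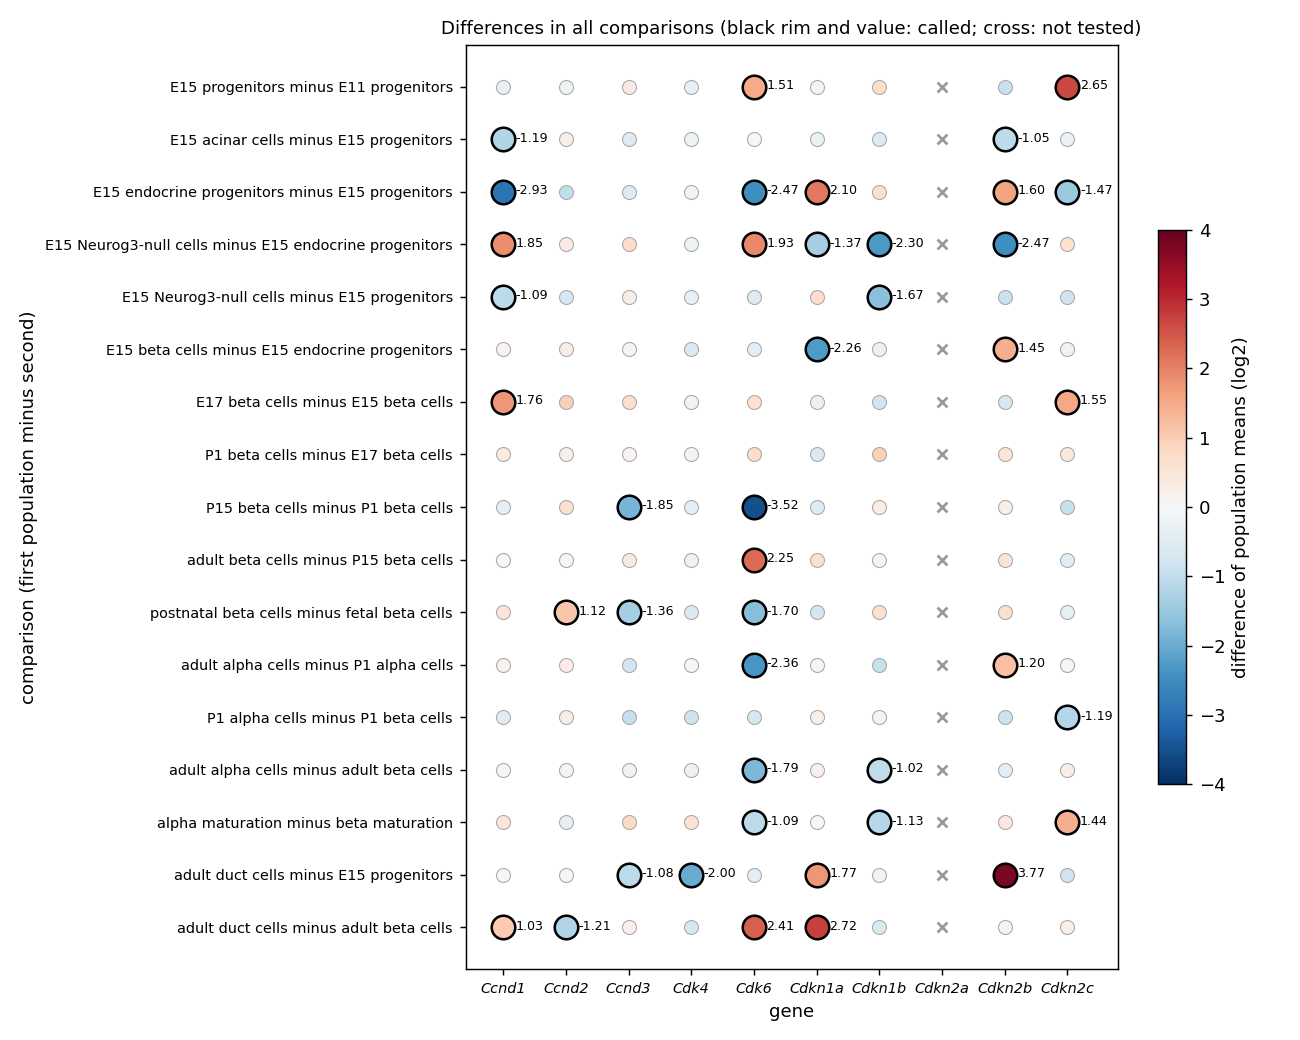
Difference of population means (log2, first population minus second) for each gene in the 17 comparisons. The colour gives the size and direction, a black rim with a printed value marks a called difference, and a cross marks Cdkn2a, which was not tested. Both comparisons of E15 endocrine progenitors with E15 progenitors and with Neurog3-null cells hold 5 called genes, and P1 minus E17 beta cells holds none. Cdkn2c, given as a description only, is among the 5 against E15 progenitors.

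The comparison of E15 with E11 progenitors asked what changes in progenitors as the pancreas grows and branches. Of the 9 tested members, 2 were higher and none lower at E15, where 11.3% of all tested probes were called (4.96% higher and 6.37% lower). Cdk6 measured 10.66, 10.71 and 10.95 in the 3 arrays of E15 progenitors, against 9.27, 9.36, 8.97 and 9.42 in E11 progenitors. Every E15 array was above every E11 array, and the difference was 1.51 (SE 0.31, adjusted p = 0.000262). The second Cdk6 probe gave 1.62. Cdkn2c, the Ink4 gene, measured 6.60, 6.45 and 7.33 in E15 progenitors, against 3.98, 4.27, 3.92 and 4.42 in E11 progenitors, a difference of 2.65 without overlap, but only 1 of these arrays exceeded 100. Markers of other cells also differed: the alpha cell marker mean was 6.60 in E15 and 12.17 in E11 progenitors, and the acinar mean 11.53 and 9.08. Their part in these differences was not tested. None of the 18 S phase and mitosis genes examined, which include Mki67 (12.68 at E15 and 12.69 at E11), was called in either direction by limma, and 2 had an unadjusted p below 0.05.

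Endocrine progenitors were compared with E15 progenitors to ask what accompanies the start of endocrine differentiation. Of the 9 tested members, 5 were called, 2 higher and 3 lower, where 19.2% of all probes were called (9.07% higher and 10.1% lower). The D cyclin gene Ccnd1 and the kinase gene Cdk6 were low together with Cdkn2c, whereas the inhibitor genes Cdkn1a and Cdkn2b were high. Ccnd1 measured 9.53, 9.39 and 10.03 in endocrine progenitors, against 12.56, 12.30 and 12.90 in E15 progenitors. All values of endocrine progenitors were more than 2 log2 units below the lowest progenitor value, and the difference was -2.93 (SE 0.20, adjusted p = 2.44e-15). Cdk6 measured 7.87, 8.04 and 8.997 in endocrine progenitors, against 10.66, 10.71 and 10.95 in E15 progenitors. The third endocrine progenitor array stood nearest to the progenitors without reaching them, and the difference was -2.47 (SE 0.33, adjusted p = 1.23e-07), with -2.73 by the second probe. That array also had the highest acinar marker mean of its group (10.63, against 8.41 and 8.995) and the highest duct marker mean (9.44, against 9.08 and 9.26). The acinar mean was 9.34 in endocrine progenitors and 11.53 in E15 progenitors. In the same order, the alpha cell marker mean was 12.27 and 6.60, Gcg 13.89 and 8.28, Ins2 12.24 and 6.86, and the mesenchymal mean 9.04 and 7.43. The part of such RNA in the differences was not tested. Ccnd2 measured 11.60, 11.63 and 11.73 in endocrine progenitors, against 12.70, 12.84 and 12.37 in E15 progenitors, without overlap. Its difference of -0.98 (adjusted p = 4.83e-06) fell just short of 2-fold and was not called, whereas all 6 other Ccnd2 probes were called lower, by -1.18 to -1.51.

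Cdkn1a measured 12.64, 12.81 and 12.92 in endocrine progenitors, against 10.71, 10.71 and 10.66 in E15 progenitors. The groups were tight and far apart, with a difference of 2.10 (SE 0.19, adjusted p = 8.89e-12), and the second probe gave 2.21. Cdkn2b measured 6.89, 6.98 and 7.07 in endocrine progenitors, against 5.25, 5.05 and 5.85 in E15 progenitors, and only the endocrine progenitor arrays exceeded 100. The difference was 1.60 (SE 0.22, adjusted p = 2.26e-07). Cdkn2c measured 5.11, 5.55 and 5.31 in endocrine progenitors, against 6.60, 6.45 and 7.33 in E15 progenitors, without overlap (difference -1.47). Cdkn1b, known for its role in keeping differentiated endocrine cells quiescent, measured 12.74, 12.25 and 11.43 in endocrine progenitors, against 11.84, 11.55 and 11.14 in E15 progenitors. These groups overlapped and the difference was not called. In each same-numbered pair of arrays the endocrine progenitors were higher, but no pairing is stated.

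Genes that act after the D cyclins were low in the same comparison. Of the 18 S phase and mitosis genes, 16 were lower in endocrine progenitors and none higher, with a median difference of -1.86 against 0.00 over all tested probes. Of 9 tested later cyclins and Cdks, 6 were lower, among them Cdk1 (-2.48), the mitotic kinase, and Ccna2 (-1.94), the cyclin of S phase. Among 13 Rb and E2F genes Rb1, the retinoblastoma gene, was higher (1.25) and Rbl1 (-1.48), its relative p107, and E2f8 (-2.59), an E2F repressor, were lower. Of 12 tested genes upstream of D cyclins and p27, 4 were lower, including the transcription factor genes Myc (-2.84) and Mycn (-2.41), and 2 were higher. Cdkn1a is a classical target of p53, and of 8 other p53 targets tested 2 were higher (Sesn2 by 2.08 and Trp53inp1 by 1.38) and Phlda3 was lower (-1.71).

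**Figure D3:**
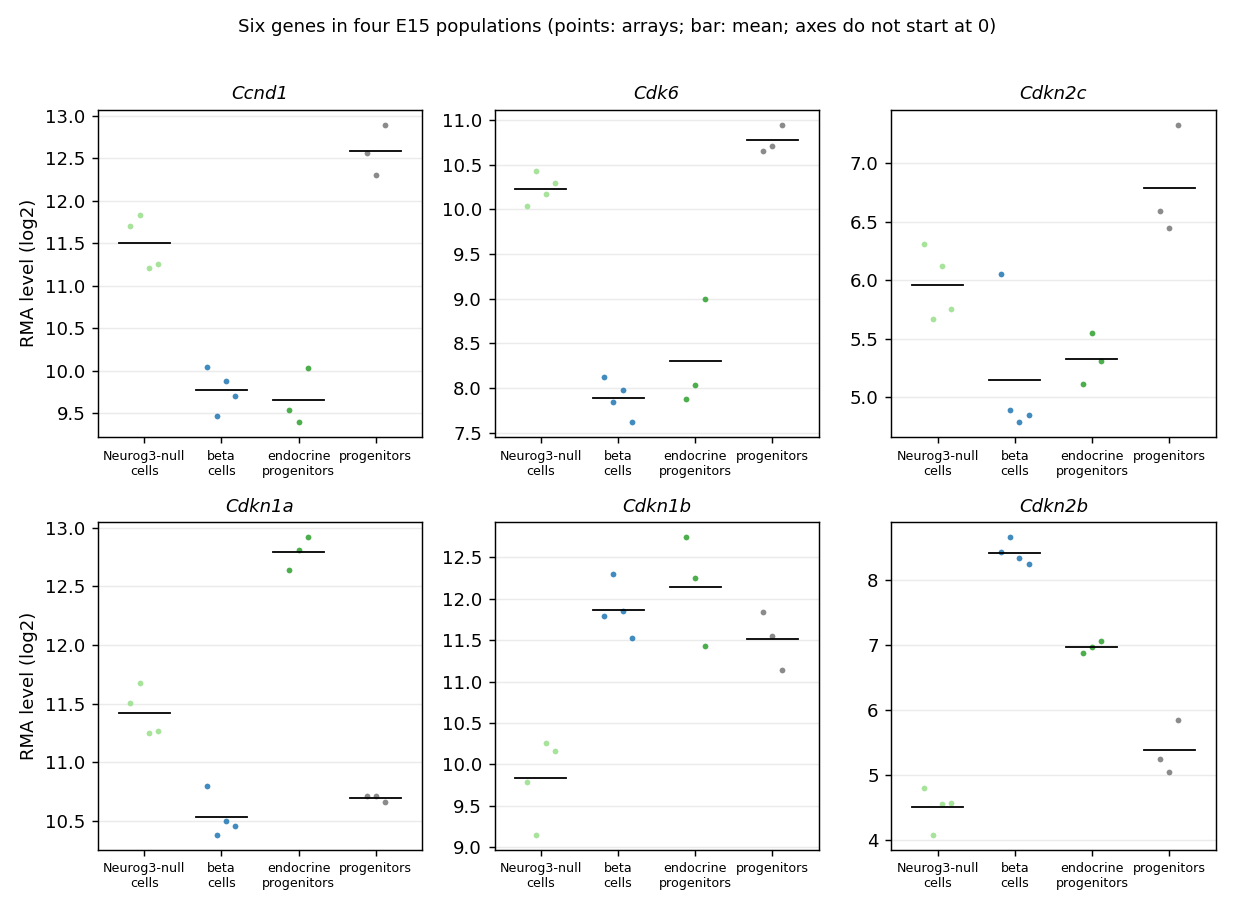
RMA level (log2) of 6 genes in 4 E15 populations: Neurog3-null cells, beta cells, endocrine progenitors and progenitors. Each point is an array and each bar a mean. The axes differ between panels and do not start at 0. Neurog3-null cells sit near the progenitors for Cdk6 (10.23 and 10.77), between the other populations for Ccnd1 and Cdkn1a, and below all of them for Cdkn1b (9.84) and Cdkn2b (4.51).

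Neurog3-null cells were compared with endocrine progenitors and with E15 progenitors. The null cells came from a knock-in line and both other populations from a transgenic line, so line and genotype cannot be told apart. Against endocrine progenitors 5 of 9 tested members were called, where 31.1% of all probes were called (14.7% higher and 16.4% lower): Ccnd1 and Cdk6 were higher and Cdkn1a, Cdkn1b and Cdkn2b lower. Against E15 progenitors 2 of 9 were called, both lower, where 18.1% of probes were called (7.63% higher and 10.4% lower). These comparisons share the Neurog3-null arrays. The leukocyte marker mean was 11.30 (10.91 to 11.74 over arrays) in Neurog3-null cells, 6.03 in endocrine progenitors and 5.64 in E15 progenitors. Of the 13 markers, 1 stayed below 100 in every Neurog3-null array, against 8 in endocrine progenitors and 10 in E15 progenitors, and the part of such RNA in the differences below was not tested. The acinar marker mean was 12.21 in Neurog3-null cells and 9.34 in endocrine progenitors, the alpha cell marker mean was 6.09 and 12.27, and their part was not tested.

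Ccnd1 measured 11.70, 11.84, 11.21 and 11.26 in Neurog3-null cells, above all endocrine progenitor arrays (9.53, 9.39 and 10.03) and below all E15 progenitor arrays (12.56, 12.30 and 12.90). The difference was 1.85 (SE 0.18, adjusted p = 6.85e-11) against endocrine progenitors and -1.09 (SE 0.18, adjusted p = 1.29e-05) against E15 progenitors. The call against E15 progenitors ended without E15 progenitor array 3 or Neurog3-null array 3, since the difference then missed 2-fold (smallest -0.93). Both other Ccnd1 probes were higher than in endocrine progenitors by less than 2-fold (0.91 and 0.50) and lower than in E15 progenitors by 1.77 and 2.24. Cdk6 measured 10.04, 10.43, 10.17 and 10.29 in Neurog3-null cells, above every endocrine progenitor array (difference 1.93, SE 0.31, adjusted p = 2.07e-06) and just below the E15 progenitors. The second Cdk6 probe differed on this point: Neurog3-null cells (8.46) stood 0.44 above endocrine progenitors (8.03), which was not called, and 2.29 below E15 progenitors (10.76), which was. Ccnd2 was not called against endocrine progenitors on its brightest probe (0.31), but 4 of its 6 other probes were called higher in Neurog3-null cells, by 1.03 to 1.29.

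Cdkn1a measured 11.51, 11.67, 11.25 and 11.27 in Neurog3-null cells, below the endocrine progenitors (12.64, 12.81 and 12.92) without overlap, a difference of -1.37 (SE 0.18, adjusted p = 2.67e-08). It was -3.01 by the second probe. On that probe Neurog3-null cells (8.02) also lay below E15 progenitors (8.82), whereas on the brightest they lay above (11.42 and 10.69). Both of these differences were less than 2-fold. Cdkn1b measured 9.79, 9.15, 10.26 and 10.16 in Neurog3-null cells, below every array of both other populations. The difference was -2.30 (SE 0.30, adjusted p = 2.47e-08) against endocrine progenitors and -1.67 (SE 0.30, adjusted p = 2.41e-05) against E15 progenitors, and the second probe was called in the same direction in both. Cdkn2b measured 4.80, 4.08, 4.56 and 4.58 in Neurog3-null cells, against 6.89, 6.98 and 7.07 in endocrine progenitors, a difference of -2.47 (SE 0.21, adjusted p = 8.1e-13). No Neurog3-null array exceeded 100.

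Later cell cycle genes were higher in Neurog3-null cells than in endocrine progenitors: 15 of 18 S phase and mitosis genes (median 1.64) and 7 of 9 later cyclins and Cdks, with none lower in either list. Against E15 progenitors, 1 of the 18 was lower and none higher. Mki67 measured 12.93 in Neurog3-null cells, 10.71 in endocrine progenitors and 12.68 in E15 progenitors.

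Acinar cells were compared with E15 progenitors to describe the exocrine branch. Of the 9 tested members 2 were called, both lower, where 9.91% of probes were called (4.08% higher and 5.83% lower). Ccnd1 measured 11.42, 11.31 and 11.46 in acinar cells, against 12.56, 12.30 and 12.90 in E15 progenitors. The groups did not overlap, and the difference was -1.19 (SE 0.20, adjusted p = 1.56e-05). Cdkn2b measured 4.65, 4.27 and 4.09 in acinar cells, against 5.25, 5.05 and 5.85 in E15 progenitors, all below 100. The difference of -1.05 (SE 0.22, adjusted p = 0.000516) missed 2-fold without E15 progenitor array 3 or acinar array 3 (smallest -0.82), and the call was also lost with array weights and by the methods' t-test. Cdk6 stayed close, at 10.93, 10.63 and 10.59 in acinar cells, and none of the 18 S phase and mitosis genes was called by limma or had an unadjusted p below 0.05. The endothelial marker mean was 8.87 in acinar cells and 4.85 in E15 progenitors, and its part in the differences was not tested.

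In the beta cell lineage, E15 beta cells were first compared with endocrine progenitors. Of the 9 tested members 2 were called, both inhibitor genes and in opposite directions, where 9.44% of probes were called (5.63% higher and 3.81% lower). Cdkn1a measured 10.79, 10.38, 10.498 and 10.46 in E15 beta cells, against 12.64, 12.81 and 12.92 in endocrine progenitors. The beta cells were at the level of E15 progenitors, and the difference was -2.26 (SE 0.18, adjusted p = 9.89e-13). Cdkn2b measured 8.44, 8.66, 8.35 and 8.25 in E15 beta cells, above every endocrine progenitor array, a difference of 1.45 (SE 0.21, adjusted p = 1.24e-06). Ccnd1 (9.77 and 9.65) and Cdk6 (7.89 and 8.30) had similar means in E15 beta cells and endocrine progenitors, and neither was called.

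From E15 to E17, 2 of 9 tested members were higher in beta cells and none lower, where 9.81% of probes were called (7.3% higher and 2.51% lower). Ccnd1 measured 12.00, 11.10 and 11.502 at E17, against 10.04, 9.47, 9.88 and 9.71 at E15. No array overlapped, and the difference was 1.76 (SE 0.18, adjusted p = 3.02e-09). Cdkn2c measured 6.48, 6.77 and 6.82 at E17, against 6.05, 4.89, 4.78 and 4.84 at E15, where array 1 stood apart. The difference was 1.55, and it was not called by the methods' t-test. Ccnd2 measured 12.66, 13.12 and 12.93 at E17, against 12.14, 12.00, 12.05 and 11.65 at E15, again without overlap but by less than 2-fold (0.95). Of its 6 other probes, 5 were called higher at E17, by 1.34 to 1.83. Of the 18 S phase and mitosis genes 7 were higher at E17 and none lower (median 0.95). Mesenchymal markers (12.12 at E17 and 10.37 at E15), leukocyte markers (8.64 and 7.45) and endothelial markers (9.73 and 6.17) were also higher at E17, and their part in these differences was not tested. At P1 against E17 none of the 9 was called by limma, where 6.21% of probes were called (3.81% higher and 2.4% lower) and 4 members had an unadjusted p below 0.05. Of these, Cdkn1b was higher (12.08, 11.95 and 12.17 at P1, against 11.04, 11.04 and 11.21 at E17) and Cdkn1a lower (9.61, 9.48 and 9.77, against 9.96, 10.59 and 10.22), both without overlap and below an adjusted p of 0.05 but by less than 2-fold. The second Cdkn1b probe went the other way, with 11.26 at P1 and 11.68 at E17 (not called).

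**Figure D4:**
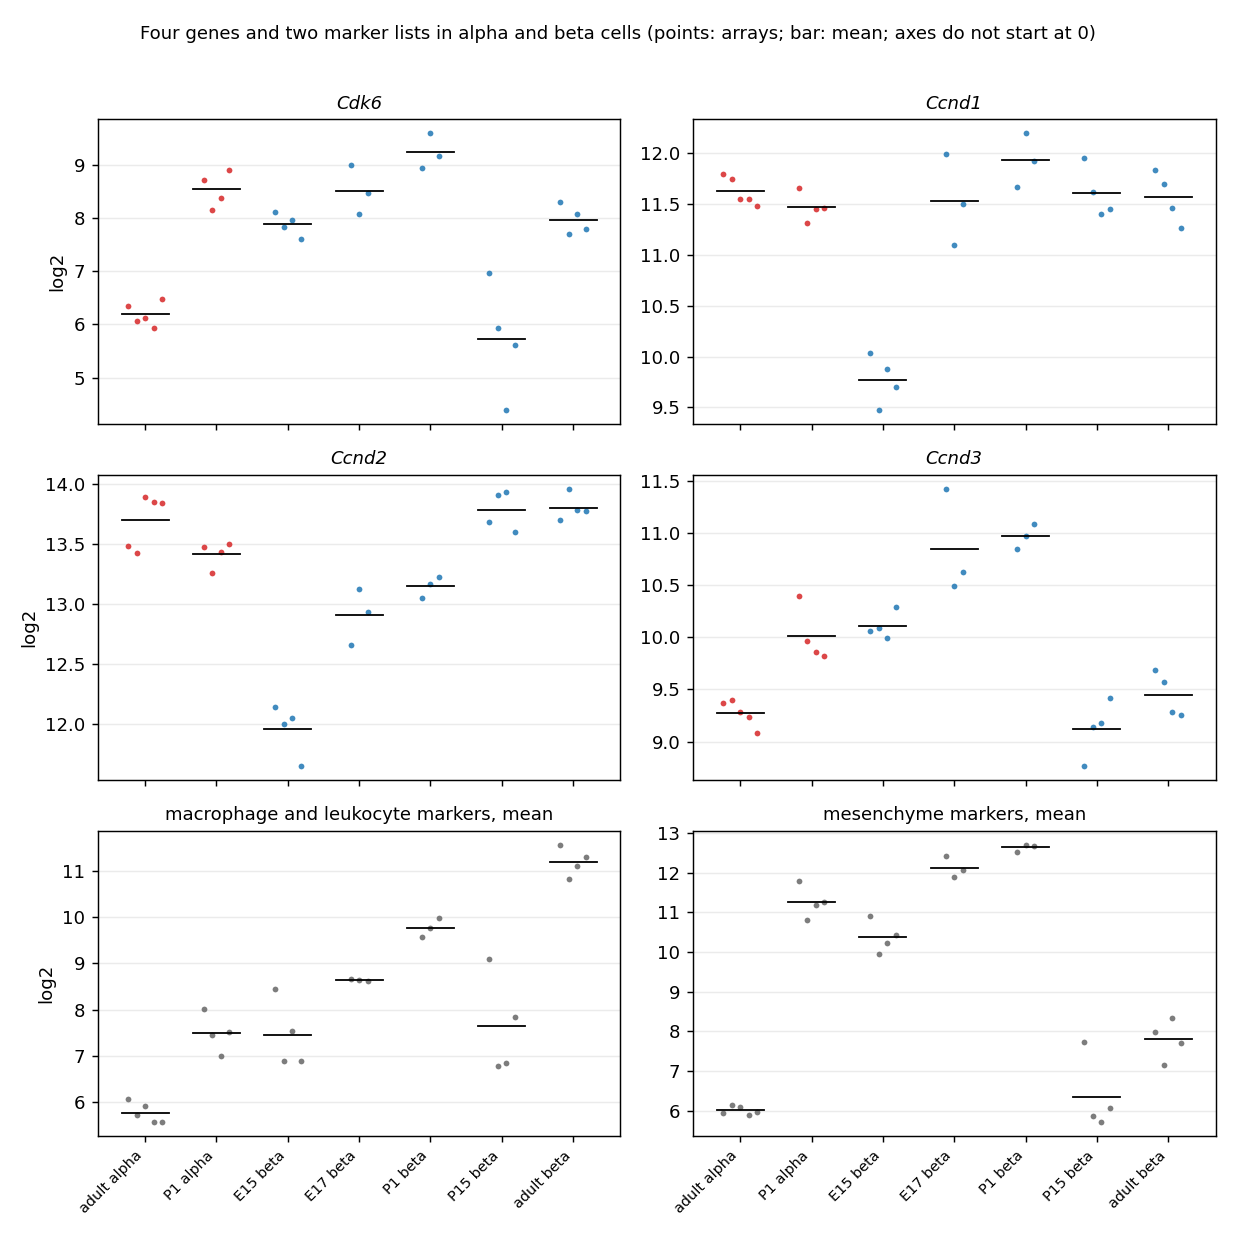
RMA level (log2) of Cdk6, Ccnd1, Ccnd2 and Ccnd3, and the mean log2 level of macrophage and leukocyte markers and of mesenchyme markers, in alpha and beta cells. Each point is an array and each bar a mean, and the axes do not start at 0. Cdk6 is lowest at P15 in beta cells (5.73) and in adults in alpha cells (6.19), and adult beta cells carry a leukocyte marker mean of 11.19.

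Between P15 and P1 the calls fell on a D cyclin and a kinase. Of the 9 tested members 2 were lower at P15 and none higher, where 25.5% of probes were called (11% higher and 14.5% lower). Ccnd3 measured 8.76, 9.14, 9.17 and 9.41 at P15, against 10.85, 10.97 and 11.08 at P1. The stages were separated by more than 1 log2 unit, and the difference was -1.85 (SE 0.16, adjusted p = 1.95e-12). Cdk6 measured 6.97, 5.93, 4.38 and 5.62 at P15, against 8.96, 9.61 and 9.18 at P1. The P15 arrays spread widely and only array 1 exceeded 100, yet all were below every P1 array, and the difference was -3.52 (SE 0.31, adjusted p = 3.54e-12), with -3.05 by the second probe. P15 array 1 also had the highest leukocyte marker mean of its group (9.09, against 6.78, 6.84 and 7.84). Its acinar marker mean was the highest too (the others were at most 9.72). The leukocyte marker mean was 7.64 at P15 and 9.77 at P1, the progenitor marker mean 9.28 and 10.67, and Sox9 7.13 and 10.31. Their part in the lower Cdk6 at P15 was not tested.

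Cdk6 was then the single member called between P15 and adult beta cells, where 7.81% of probes were called (6.23% higher and 1.58% lower). It measured 8.32, 7.71, 8.09 and 7.81 in adult beta cells, all above the P15 arrays (difference 2.25, SE 0.29, adjusted p = 1.09e-07, and 1.70 by the second probe). The call was lost by the methods' t-test. The leukocyte marker mean was 11.19 in adult and 7.64 in P15 beta cells, and Ptprc averaged 10.24 and 5.01. The duct marker mean was 10.73 in adult and 9.37 in P15 beta cells, the progenitor marker mean 10.66 and 9.28, and Sox9 10.31 and 7.13. Their part in the higher Cdk6 was not tested. The S phase and mitosis genes did not follow Cdk6: 4 of 18 were lower in adults and none was higher.

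With P15 and adult beta cells taken as postnatal and E15, E17 and P1 as fetal, 3 of 9 tested members were called, where 19.6% of probes were called (7.75% higher and 11.8% lower). This comparison uses the same arrays as the stage comparisons. Ccnd2 ranged between 13.60 and 13.96 over 8 postnatal arrays, against 11.65 to 13.22 over 10 fetal arrays. Every postnatal array was above every fetal one, and the difference was 1.12 (SE 0.09, adjusted p = 4.98e-13). Ccnd3 ranged between 8.76 and 9.68 over the postnatal arrays, against 9.996 to 11.42 over the fetal ones, with a difference of -1.36 (SE 0.10, adjusted p = 1.18e-14). All 6 other Ccnd2 probes were called higher in the postnatal group, by 1.14 to 1.58. Cdk6 was lower in the postnatal group (-1.70, SE 0.20, adjusted p = 1.18e-09), with overlap between adult and fetal arrays. Ccnd1 and Cdk4 were not called.

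Among the later cell cycle genes, 12 of 18 S phase and mitosis genes were lower at P15 than at P1 and none higher (median -1.13 against 0.12 over all probes), and 6 of 9 later cyclins and Cdks were lower. Outside the 10 members, the other Cip/Kip gene Cdkn1c, which encodes p57 and is imprinted, was lower by 6.44 on the log2 scale at P15 than at P1. The mesenchymal marker mean was 6.34 at P15 and 12.64 at P1, and the endothelial mean 5.77 and 10.58. Their part in these differences was not tested. Of 9 Polycomb and trithorax genes known to act at the Ink4 locus, the Polycomb genes Ezh2 (-1.21) and Cbx7 (1.30) were called in opposite directions at P15 against P1.

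In alpha cells 2 of 9 tested members were called between adults and P1, where 20.8% of probes were called (7.71% higher and 13.1% lower). Cdk6 measured 6.35, 6.07, 6.12, 5.93 and 6.48 in adult alpha cells, against 8.74, 8.17, 8.39 and 8.91 in P1 alpha cells. All adult arrays lay below 100, and the difference was -2.36 (SE 0.27, adjusted p = 3.3e-09), or -1.13 with overlapping arrays by the second probe. Cdkn2b measured 9.03, 8.58, 8.86, 8.23 and 8.39 in adult alpha cells, against 7.38, 7.23, 7.67 and 7.40 at P1, without overlap (difference 1.20, SE 0.18, adjusted p = 9.14e-07). Ccnd3 was lower by 0.73 on the log2 scale in adult alpha cells, short of 2-fold. Ccnd2 measured 13.48, 13.43, 13.89, 13.85 and 13.84 in adult alpha cells, against 13.47, 13.26, 13.43 and 13.51 at P1, and the overlapping groups were not called (0.28). On 5 of its 6 other probes it was called higher in adult alpha cells, by 1.25 to 1.90. Of 2 other Ccnd1 probes 1 was called lower (-1.06), against 0.15 on the brightest. Of the 18 S phase and mitosis genes, 14 were lower in adult alpha cells and none higher (median -1.89). Of the 9 Polycomb and trithorax genes, 2 were lower, among them Ezh2 (-2.26), and 1 was higher, Cbx7 (1.38). The mesenchymal marker mean was 6.01 in adult and 11.27 in P1 alpha cells, and the leukocyte mean 5.77 and 7.50. In the same order, the duct marker mean was 6.17 and 9.21, the progenitor mean 7.25 and 9.70, and Sox9 6.88 and 11.19. The endothelial mean was 5.19 and 9.23. Their part in the alpha cell differences was not tested.

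Alpha and beta cells were then compared at the same age. At P1, 1 of 9 tested members was called, where 19.8% of probes were called (8% higher and 11.8% lower): Cdkn2c measured 5.83, 6.01, 6.04 and 5.85 in alpha cells, against 6.43, 7.41 and 7.51 in beta cells. Only beta cell arrays, 2 of 3, exceeded 100, and the difference of -1.19 missed 2-fold without P1 beta array 3 (-0.99). Ccnd2 was not called on its brightest probe (13.42 in P1 alpha and 13.15 in P1 beta cells), but on 4 of its 6 other probes it was called lower in alpha cells, by -1.16 to -1.71. The second Cdk6 probe was lower in P1 alpha (6.99) than in P1 beta cells (8.93), whereas the first (8.55 and 9.25) was not called. In adults 2 of 9 were called, where 17.2% of probes were called (6.22% higher and 11% lower). Cdk6 in adult alpha cells (5.93 to 6.48) lay below every adult beta array (7.71 to 8.32), with a difference of -1.79 (SE 0.27, adjusted p = 1.22e-06). The leukocyte marker mean was 5.77 in adult alpha and 11.19 in adult beta cells, the duct marker mean 6.17 and 10.73, and Sox9 6.88 and 10.31, and their part in the Cdk6 difference was not tested.

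Cdkn1b measured 10.68, 10.08, 11.59, 11.88 and 12.00 in adult alpha cells, against 12.31, 12.27, 12.30 and 12.19 in adult beta cells, a difference of -1.02 (SE 0.26, adjusted p = 0.0015). Adult alpha arrays 1 and 2 were the lowest, and the same 2 arrays carried the most acinar RNA (marker means 10.61 and 10.68, against 7.46, 7.61 and 8.09 in the others). Without array 1 or array 2 the call ended (smallest -0.73), and without both the difference was -0.44 (adjusted p = 0.103). The second Cdkn1b probe went the other way, with 12.09 in adult alpha cells and 11.38 in adult beta cells (0.71, not called).

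Whether maturation differed between the lineages was tested as the change of adult over P1 in alpha cells minus that in beta cells. Of 9 tested members 3 were called, where 20.7% of probes were called (9.78% higher and 10.9% lower). Cdkn2c changed by 0.06 in alpha cells and by -1.38 in beta cells, a difference of 1.44, where no array of P1 alpha, adult alpha or adult beta cells exceeded 100. Cdk6 changed by -2.36 in alpha cells and -1.27 in beta cells (difference -1.09, SE 0.42, adjusted p = 0.0388). This call ended in 9 of 16 leave-one-out fits (adjusted p up to 0.107), and the second probe gave 0.23. The leukocyte marker mean was 11.19 in adult and 9.77 in P1 beta cells, and 5.77 and 7.50 in alpha cells. Its part in the Cdk6 difference was not tested. Cdkn1b changed by -0.93 in alpha cells and 0.21 in beta cells (difference -1.13, SE 0.39, adjusted p = 0.0232). The difference was -0.56 (adjusted p = 0.176) without adult alpha arrays 1 and 2 and -0.08 by the second probe. Ccnd2 and Ccnd3 were not called on their brightest probes (-0.37 and 0.79). On 2 of 6 other Ccnd2 probes the difference was called higher (1.27 and 1.35), and on the second Ccnd3 probe too (2.41).

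Adult duct cells, which share Sox9 with the progenitors, were compared with E15 progenitors and with adult beta cells. Against E15 progenitors 4 of 9 tested members were called, 2 higher and 2 lower, where 33.4% of probes were called (16.1% higher and 17.4% lower). Cdk4 measured 10.78, 11.08, 11.03 and 11.15 in duct cells, against 13.06, 12.93 and 13.05 in E15 progenitors. No array came near the other group, with a difference of -2.00 (SE 0.10, adjusted p = 6.08e-20). Ccnd3 measured 9.74, 9.56, 9.76 and 9.59 in duct cells, against 10.79, 10.61 and 10.84 in E15 progenitors (difference -1.08, SE 0.16, adjusted p = 2.94e-07). In contrast, Ccnd1 (12.60 and 12.59), Ccnd2 (12.59 and 12.64) and Cdk6 (10.38 and 10.77) had similar means in duct cells and E15 progenitors and were not called, although the second Cdk6 probe was lower in duct cells by 1.14 on the log2 scale.

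Of the inhibitors, Cdkn1a and Cdkn2b were higher in duct cells than in E15 progenitors, whereas Cdkn1b (11.67 and 11.51) and Cdkn2c (5.98 and 6.79) were not called. Cdkn1a measured 12.71, 12.30, 12.46 and 12.37 in duct cells, against 10.71, 10.71 and 10.66 in E15 progenitors, a difference of 1.77 (SE 0.18, adjusted p = 4.55e-11), or 0.78 by the second probe. Cdkn2b measured 9.13, 9.15, 9.06 and 9.28 in duct cells, against 5.25, 5.05 and 5.85 in E15 progenitors. This was the largest of the 42 called differences, at 3.77 (SE 0.21, adjusted p = 3.82e-18), with no E15 progenitor array above 100. Against E15 progenitors, duct cells were lower in 17 of 18 S phase and mitosis genes and higher in none (median -2.54 against -0.11 over all probes), and 8 of 9 later cyclins and Cdks were lower. The leukocyte marker mean was 11.47 in duct cells and 5.64 in E15 progenitors, and its part in these differences was not tested.

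Against adult beta cells 4 of 9 tested members were called, where 32.3% of probes were called (16.4% higher and 15.9% lower). Ccnd1 was higher in duct cells (12.60, 12.68, 12.42 and 12.70) than in adult beta cells (11.84, 11.70, 11.46 and 11.27), by 1.03 (SE 0.17, adjusted p = 2.15e-06). The difference missed 2-fold without adult beta array 3 or 4 (smallest 0.93). Ccnd2 was lower in duct cells (12.86, 12.51, 12.72 and 12.28) than in adult beta cells (13.70, 13.96, 13.78 and 13.78), by 1.21 on the log2 scale (difference -1.21, SE 0.14, adjusted p = 1.36e-09). Cdk6 (10.67, 10.09, 10.45 and 10.34 in duct cells) was higher by 2.41 (SE 0.29, adjusted p = 3.39e-09), and Cdkn1a was higher by 2.72 (SE 0.16, adjusted p = 1.92e-17). No array of these 4 genes overlapped between duct and adult beta cells. The leukocyte marker mean was 11.47 in duct and 11.19 in adult beta cells, the duct marker mean 12.82 and 10.73, and Sox9 12.71 and 10.31. The part of RNA from other cells in these differences was not tested.

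Apart from the Ccnd1, Ccnd2, Cdk6 and Cdkn1a probes given above, probes of the same gene disagreed for Ccnd3 and Cdkn1b. The second Ccnd3 probe exceeded 100 in 8 of 48 arrays. Its mean was 8.27 ± 0.58 (SD, n = 5) in adult alpha cells, where the first probe was among the lowest, and at most 6.62 elsewhere, and it was called higher in adult than in P1 alpha cells (2.38) and than in adult beta cells (2.36). It did not show the lower level of P15 than of P1 beta cells (0.42) or of duct cells than of E15 progenitors (0.04). The Ccnd3 differences therefore rest on 1 probe, which was above 100 in all arrays.

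**Figure D5:**
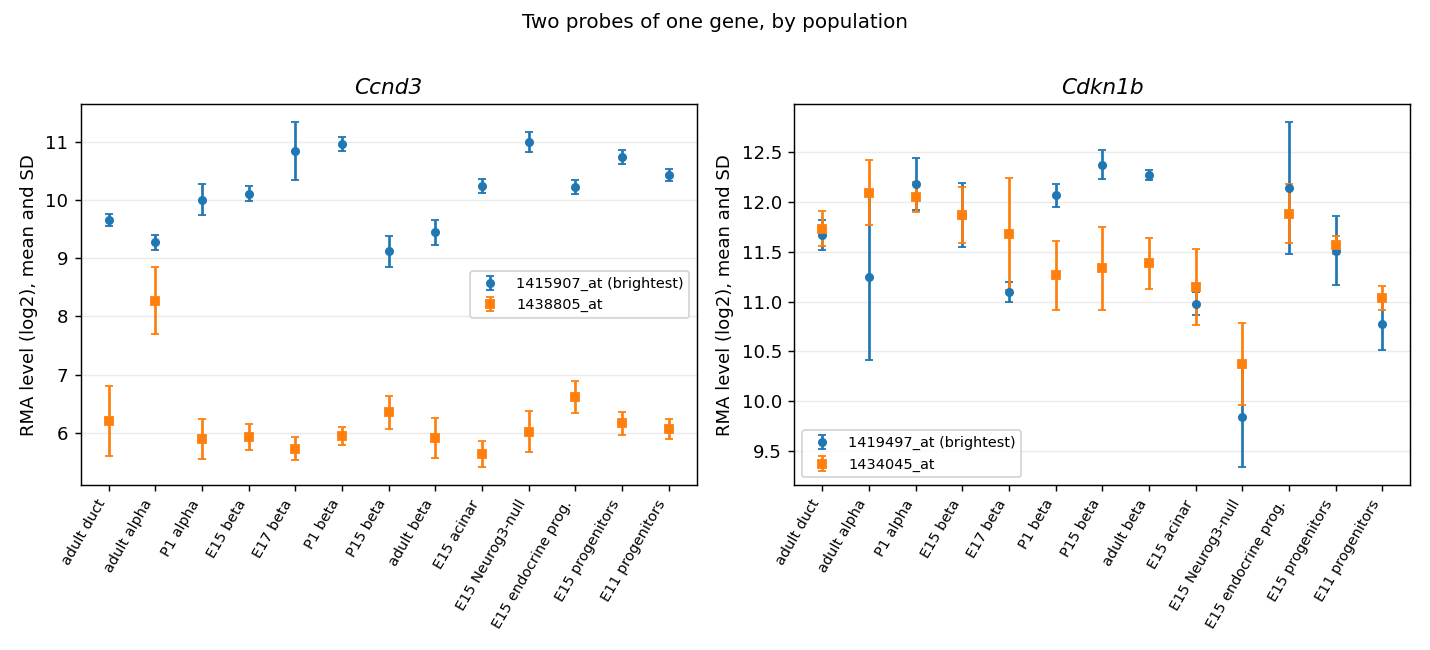
Mean and SD (RMA level, log2) of the 2 tested probes of Ccnd3 and of Cdkn1b in each population. The second Ccnd3 probe (squares) is near 6 except in adult alpha cells (8.27), and the second Cdkn1b probe is higher in adult alpha (12.09) than in adult beta cells (11.38), opposite to the brightest probe (11.25 and 12.27).

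Across the 13 population means, the D cyclin and Cdk genes related in different ways to Mki67, a gene of dividing cells. As a description over 13 means that share arrays, amplification and normalization, Pearson's r with Mki67 was 0.77 for Ccnd3, 0.73 for Cdk6, 0.72 for Cdk4, 0.29 for Ccnd1 and -0.39 for Ccnd2. It was -0.80 for Cdkn2b, -0.50 for Cdkn1b, 0.15 for Cdkn1a and 0.10 for Cdkn2c. Among pairs of members, the strongest relations were Ccnd2 with Cdkn1a (-0.79) and Cdk4 with Cdkn2b (-0.73).

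Of 14403 other genes compared over the same 13 means, those most like each member were Med9 (0.98), Nmral1 and Hdac1 for Cdk4, and Mboat1 (0.98), Cldn10 and Mpzl2 for Cdk6. They were 9930012K11Rik (0.96) for Ccnd3, Ckmt1 (0.96) for Cdkn2b, Ly6g6e (0.91) for Cdkn1a, 5033430I15Rik (0.91) for Ccnd2, Prdm2 (0.90) for Cdkn1b, Kdelr3 (0.88) for Cdkn2c and Gm17501 (0.85) for Ccnd1.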

How the data were processed

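The authors processed 48 Affymetrix whole-genome mouse arrays by RMA in R 2.11.1, and the deposited values are log2 RMA levels of 45101 probe sets, one column per sample. The array number per population (3 to 5) limits precision. Array medians lay between 6.58 and 6.88, and no 2 arrays were identical. Gene names came from the platform annotation: 34958 probes named 1 gene, 932 several and 9211 none, and only the first kind was used. Probes above 100 on the linear scale in at least 1 array (32043) were fitted with limma 3.58.1 in R 4.3.3 as 13 population means over all 48 arrays. Differences were called at a Benjamini-Hochberg adjusted p below 0.05 and at least 2-fold. Pooled pancreata make the replicates, and the p-values measure only the spread between these samples. Deviations of same-numbered E15 and E11 progenitor arrays correlated weakly (0.106 to 0.148 over 3 pairs). For E15 progenitors, which came from Neurog3-eGFP pancreata as did 2 other populations, the range was 0.0522 to 0.302 with endocrine progenitors. With acinar cells it was -0.00131 to 0.101. No pairing is stated, and arrays of different numbers were not compared in this way. Alternatives covered normalization, filter, array weights, samples fitted, the methods' t-test, a replicate block, averaged probes and arrays left out. Named genes were the 10 members and, per fixed list, those called with the largest difference. Members, lists and markers were chosen with earlier results of these data known. Promoters came from RefSeq.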

Additional observations from a re-analysis of the deposited data

Results flagged for a closer look

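In 5 of 80 groups of 4 or 5 arrays, 1 array stood far from the others of its population, and chance alone flags about 1 in 20 such groups. Cdk4 measured 11.67 in P1 alpha array 1, against 11.41 to 11.43 in the others. Cdkn2a measured 5.43 in adult beta array 1 (others 5.71 to 5.74) and 5.64 in adult alpha array 2 (others 5.14 to 5.26), all below 100 on the linear scale. Cdkn2b measured 9.06 in P15 beta array 4, against 8.25 to 8.38 in the others. Cdkn2c measured 6.05 in E15 beta array 1, against 4.78 to 4.89 in the others, and that array also had the highest leukocyte marker mean of its population (8.46, against 6.89 to 7.54).

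The change of adult over P1 was called different between alpha and beta cells, by the test of that difference in limma, for Cdk6 (-1.09) and Cdkn1b (-1.13). Cdkn2c (1.44) was flagged too but is given as a description only, since it entered the test through populations where it was high. The calls of Cdk6 and Cdkn1b were lost when some single arrays were left out, and for Cdkn2c 3 of the 4 populations had no array above 100.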

How the results depend on the processing

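No called difference changed direction in the settings below, none of which used another probe of a gene alone. With the other probes, all signs were the same for 26 of 31 called differences, as given above. Of 42 called differences of members, 40 kept their call after a further quantile normalization, 42 without a filter, 37 of 37 testable with probes above 100 in 24 arrays, 39 with array weights, 40 with the compared populations fitted alone, 35 of 39 by the methods' t-test, and 35 with the mean of a gene's probes. With the replicate number as a block, all 42 calls remained and 17 of 17 counts stayed within 1.5 times, and Cdk6 in E15 over E11 progenitors was then 1.57. No pairing of samples was stated for any comparison. The block used the array number alone, and with it no call was lost.

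The number of called members moved in these cases, and the cause was not tested. For E15 against E11 progenitors (2 called) it was 1 with the 24-array filter and 4 with array weights. For acinar cells against E15 progenitors (2) it was 1 with array weights and 1 by the t-test. For E17 against E15 beta cells (2) it was 1 with the 24-array filter and 1 by the t-test. For P15 against P1 beta cells (2) it was 1 with averaged probes, and for adult against P15 beta cells (1) it was 0 by the t-test. For P1 alpha against P1 beta cells (1) it was 0 with the 24-array filter and 2 with array weights. For adult alpha against adult beta cells (2) it was 1 with quantile normalization, array weights, the compared populations alone, the t-test, averaged probes, and without adult alpha arrays 1 and 2 (chosen after seeing the data). For the difference of maturation (3) it was 1 without those 2 arrays.

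Leaving out 1 array at a time gave counts of 1 to 2 for adult alpha against adult beta cells, 2 to 3 for adult against P1 alpha cells, 1 to 1 for adult against P15 beta cells, 3 to 4 for duct against adult beta cells, 4 to 4 for duct cells against E15 progenitors, 1 to 3 for the difference of maturation, 1 to 2 for acinar cells, 2 to 2 for E15 beta cells against endocrine progenitors, 5 to 6 for endocrine progenitors against E15 progenitors, 5 to 5 and 1 to 4 for Neurog3-null cells against endocrine and E15 progenitors, 2 to 3 for E15 against E11 progenitors, 2 to 3 for E17 against E15 beta cells, 0 to 2 for P1 alpha against P1 beta cells, 0 to 0 for P1 against E17 beta cells, 2 to 3 for P15 against P1 beta cells, and 3 to 3 for postnatal against fetal beta cells. With averaged probes the Ccnd3 differences were -0.83 at P15 against P1, -0.62 postnatal against fetal and -0.68 in duct cells against E15 progenitors, all short of 2-fold. Cdkn2a, most Cdkn2c values and the low Cdkn2b and Cdk6 values lie where the probes measure little above background, which limits their differences.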
